A study of Mus musculus with 3 samples.

Results

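The GATA factors other than Gata3 and their FOG cofactors were followed in mouse mammary tumors made to carry extra GATA-3. They were the 7 genes Gata1, Gata2, Gata4, Gata5, Gata6, Zfpm1 (FOG1) and Zfpm2 (FOG2), chosen by gene symbol, of 15056 named genes measured. They were read by 8 of 38976 probe rows, with 2 probes for Gata4 and 1 for each of the other genes. The tested tumors grew from primary MMTV-PyMT carcinoma cells infected with a retrovirus of the PMIG vector, which carries full-length GATA-3 and an IRES-GFP cassette. The control tumors grew from the same kind of cells infected with the control virus, the empty vector. In MMTV-PyMT mice a viral oncogene, driven by a mammary-active viral promoter, gives rise to luminal-type mammary carcinoma. Both kinds of cells were non-fluorescent before infection and were grafted into wild-type hosts whose mammary fat pads had been cleared of their own epithelium, and RNA was taken after 6 weeks. There was 1 group of 3 two-channel arrays, each with a GATA-3 tumor in Cy5 and an empty-vector tumor in Cy3. No age of the animals is given, nor a statement that each array had its own animals, so p-values measure only the spread between these arrays, which may be technical.

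GATA factors are zinc-finger proteins that bind DNA at GATA sequences. GATA1, GATA2 and GATA3 are known from blood cells, with GATA3 also directing the luminal lineage of the mammary gland, and GATA4, GATA5 and GATA6 from heart, gut and other endoderm-derived tissues. The FOG proteins do not need to touch DNA: they bind the amino-terminal finger of a GATA factor and bring corepressors, the CtBP proteins and the NuRD complex, to its target genes.

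Each value was a log ratio of GATA-3 tumor over empty-vector tumor, centred on the median of its array and taken as log2; a positive value means higher in the GATA-3 tumor. The direction is likely but not stated outright: the labels give the GATA-3 tumor as channel 1 and as the sample set against the control. Gata3 was positive on all 3 arrays, but it was read by 1 probe. Since 76.4% of all rows had 1 sign on all 3 arrays, its sign alone does not settle the direction. If the ratio ran the other way, every higher and lower below would swap. With the dyes never swapped, unequal RNA in the tumors and dye bias of a probe cannot be told apart. Arrays 2 and 3 share a title prefix and were closer to each other (r = 0.95, Pearson's, across rows that are no independent replicates) than to array 1 (r = 0.77 and 0.78). In bulk tumor RNA, fewer cells of a type and less RNA per cell cannot be told apart. A call means an adjusted p under 0.05 in limma's moderated test of the mean ratio against 0, with Benjamini-Hochberg adjustment over all 31059 rows tested.

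Of the 7 genes, Zfpm2 rose, Gata1 and Zfpm1 fell, and Gata2, Gata4, Gata5 and Gata6 did not pass the test. Zfpm2 had a mean log2 ratio of 0.72, close to the 0.80 of Gata3 itself, whereas Gata1 and Zfpm1 lay at -0.44 and -0.40. These 3 calls are 42.9% of the genes, against 55.8% of all rows called on these arrays in either direction. For the single directions, 31.7% of all rows were called higher and 24.1% lower. The family was therefore not called more often than the rest of the array. The median size of the mean ratio, sign left aside, was 0.22 in the 7 genes and 0.37 over all rows.

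**Figure D1:**
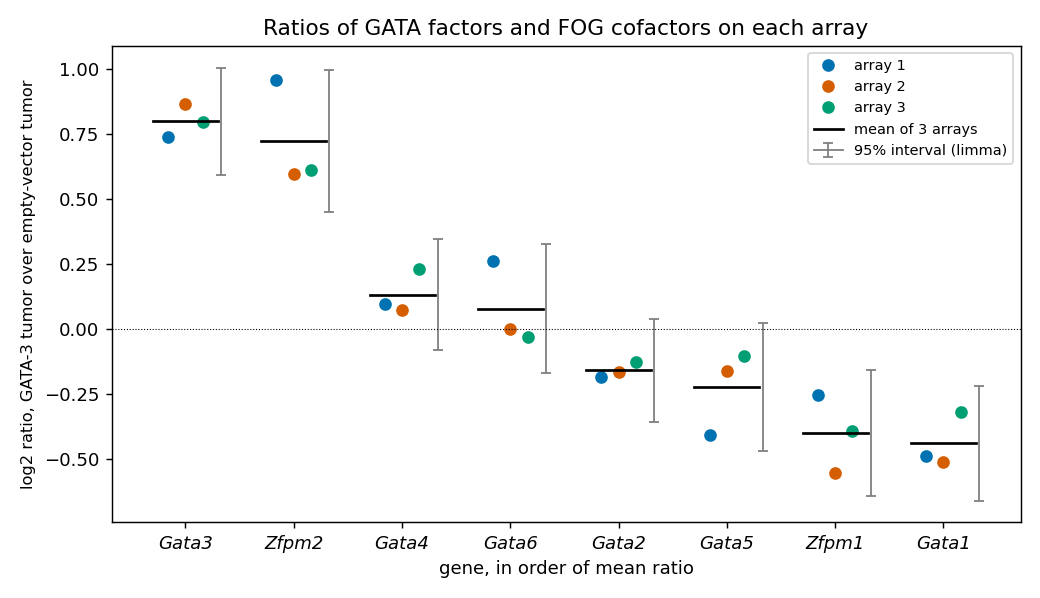
The log2 ratio of GATA-3 tumor over empty-vector tumor (vertical axis) is plotted for each gene on arrays 1, 2 and 3 (points), with the mean of 3 arrays (line) and limma's 95% interval (grey bar). The 3 points of Zfpm2 sit between 0.60 and 0.96, overlapping the range of Gata3, while those of Gata1 and Zfpm1 all lie below -0.25.

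The forced gene is given here for comparison with the others. Gata3 had log2 ratios of 0.74, 0.86 and 0.79 on arrays 1, 2 and 3, a mean of 0.80 ± 0.06 (SD, n = 3; limma, adjusted p = 0.00307). A mean at least this high was found in 11.9% of all rows. The position of its probe along the message was not looked up, so viral and endogenous messages cannot be told apart.

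The FOG cofactors went in opposite directions. Zfpm2, the FOG partner of GATA4 in the developing heart and gonad, had log2 ratios of 0.96, 0.60 and 0.61 on arrays 1, 2 and 3. All 3 arrays were thus positive, with array 1 the highest. The mean was 0.72 ± 0.20 (SD, n = 3), a 1.65-fold higher level in the GATA-3 tumors, with a 95% interval of 0.45 to 0.99 (limma, adjusted p = 0.00511). Zfpm2 kept its sign and its call in all 9 processing alternatives, with means from 0.60 to 0.78. Not all of these could move it: by construction, robust eBayes leaves the mean of any row as it is. For a gene with 1 probe, so do each probe on its own and the median over probes. A mean this high or higher was found in 15.0% of all rows.

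Zfpm1, the partner of GATA1 in red cell and platelet formation, had log2 ratios of -0.25, -0.55 and -0.39 on arrays 1, 2 and 3. All 3 arrays were negative, and array 2 was the lowest. The mean was -0.40 ± 0.15 (SD, n = 3; 95% interval -0.64 to -0.16), so that Zfpm1 RNA in the GATA-3 tumors stood at 75.8% of that in the empty-vector tumors (limma, adjusted p = 0.0192). The call was lost without array 2 (limma, mean -0.32, adjusted p = 0.0973), without array 3 (mean -0.40, adjusted p = 0.113), and with arrays 2 and 3 averaged into 1 value (mean -0.36, adjusted p = 0.0897). Without array 1 it held (mean -0.47, adjusted p = 0.00876).

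Set against each other, the log2 ratio of Zfpm2 exceeded that of Zfpm1 by 1.211, 1.148 and 1.001 on arrays 1, 2 and 3. The mean difference of 1.12 ± 0.11 (SD, n = 3) had the same sign on 3 of 3 arrays, and the ranges of both genes did not overlap. An exact two-sided sign-flip permutation test over the arrays gave p = 0.25, which is the smallest that 3 arrays allow (0.55 after Benjamini-Hochberg adjustment over 11 comparisons). Gata1 and Zfpm1 entered these comparisons in both orders. The difference is one between 2 probes, and how far such differences reach for probes of 1 gene is given below.

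Among the GATA factors of blood, Gata1 fell. Gata1, the master regulator of red cell, platelet, mast cell and eosinophil formation, had log2 ratios of -0.49, -0.51 and -0.32 on arrays 1, 2 and 3. All 3 arrays were negative and close together. The mean was -0.44 ± 0.10 (SD, n = 3; 95% interval -0.66 to -0.22), or 73.7% of the level in the empty-vector tumors (limma, adjusted p = 0.0108). It fell just short of the threshold without array 2 (limma, mean -0.41, adjusted p = 0.0557) and without array 3 (mean -0.50, adjusted p = 0.0580), and held without array 1 (mean -0.41, adjusted p = 0.0146).

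Gata2, which keeps blood stem cells and is also made by mast cells and endothelium, had log2 ratios of -0.19, -0.17 and -0.13 on arrays 1, 2 and 3. These were the closest values of any of the 7 genes, with an SD of 0.03, but the mean of -0.16 did not pass (limma, adjusted p = 0.137; 95% interval -0.36 to 0.04). Limma's moderation, which draws the spread of each row toward that of all rows, gives such a tight row a wider interval than its own SD would. The log2 ratio of Gata1 was below that of Gata2 on 3 of 3 arrays, with a mean of -0.28 ± 0.08 (SD) for Gata1 minus Gata2. The exact two-sided sign-flip permutation test gave p = 0.25, the smallest 3 arrays allow, or 0.55 adjusted over the same 11 comparisons.

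Gata1 and Zfpm1, whose proteins act together, had like ratios. Gata1 minus Zfpm1 was -0.24, 0.04 and 0.07 on arrays 1, 2 and 3, a mean difference of -0.04 ± 0.17 (SD, n = 3), and their ranges overlapped (exact two-sided sign-flip permutation test, p = 1.0). That a difference was not detected does not show that they moved alike. Both fell, so the stretches just upstream of their starts are shown for comparison. They are the 250 bases before the start of each gene in RefSeq, on build GRCm38.p6: chrX:7967911-7968160 on the minus strand for Gata1 and chr8:122281891-122282140 on the plus strand for Zfpm1. Both are written 5′ to 3′ on the strand of the gene, and capitals mark the letters GATA or, for the other strand, TATC.
Gata1: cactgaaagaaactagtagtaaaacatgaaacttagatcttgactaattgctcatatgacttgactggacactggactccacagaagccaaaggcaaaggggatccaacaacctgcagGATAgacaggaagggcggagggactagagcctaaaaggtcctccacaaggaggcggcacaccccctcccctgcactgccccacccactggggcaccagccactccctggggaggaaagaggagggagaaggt
Zfpm1: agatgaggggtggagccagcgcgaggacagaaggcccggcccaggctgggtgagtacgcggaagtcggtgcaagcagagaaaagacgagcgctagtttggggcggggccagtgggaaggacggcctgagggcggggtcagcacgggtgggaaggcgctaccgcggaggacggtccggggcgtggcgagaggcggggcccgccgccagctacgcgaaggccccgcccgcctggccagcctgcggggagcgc
The Gata1 stretch held the 4 letters 1 time, 132 bases before the start, and the Zfpm1 stretch did not hold them. In 53.6% of 32851 RefSeq promoters of the same length at least 1 such match was found. The 6-letter forms, with A or T before GATA and A or G after it, were searched on both strands; each includes the 4 letters. They were present in 26.5% of all promoters and in neither of these stretches. Promoters were at hand for 4 of the 7 genes (5 stretches, 2 of them for Gata2), and the 6-letter forms were found in 0 of the 4. The Gata1 stretch was 54.0% G or C and the Zfpm1 stretch 73.2%, with a median of 52.4% over all promoters. These matches describe the letters in a short window and are no measure of binding.

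The GATA factors of heart and endoderm did not pass the test. Gata5, known from heart and endoderm, had log2 ratios of -0.41, -0.16 and -0.10 on arrays 1, 2 and 3, all negative, with array 1 the lowest. Its mean was -0.22 ± 0.16 (SD, n = 3; limma, adjusted p = 0.102; 95% interval -0.47 to 0.02). Without the centring on the array median it crossed the threshold (limma, mean -0.28, adjusted p = 0.0488).

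Gata4, a regulator of heart and gonad development, was the gene with 2 probes. Averaged, they gave log2 ratios of 0.10, 0.07 and 0.23 on arrays 1, 2 and 3, with a mean of 0.13 ± 0.09 (SD, n = 3; limma, adjusted p = 0.224; 95% interval -0.08 to 0.34). One probe alone gave 0.37, 0.12 and 0.17, all positive, and the other -0.17, 0.02 and 0.29, a spread on both sides of 0. Neither passed when each probe was tested on its own (limma, adjusted p = 0.0995 and 0.749), where 57.3% of all probe rows were called. Their means differed by 0.17.

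Gata6, known from heart, gut and lung, had log2 ratios of 0.26, 0.00 and -0.03 on arrays 1, 2 and 3. It was the gene of the 7 without 1 sign on all arrays; the other 6 had 1, against 76.4% of all rows. Its mean was 0.08 ± 0.16 (SD, n = 3; limma, adjusted p = 0.514; 95% interval -0.17 to 0.33), and without array 1 the sign turned (mean -0.01, adjusted p = 0.898). The intervals of these 4 genes that did not pass leave room for changes of up to 0.34 upward (Gata4) and -0.47 downward (Gata5) on the log2 scale.

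In order of mean log2 ratio the genes ran Zfpm2, Gata4, Gata6, Gata2, Gata5, Zfpm1 and Gata1, with Gata3 above Zfpm2. The per-array ranges overlapped for Gata3 and Zfpm2, Gata4 and Gata6, Gata2 and Gata5, Gata5 and Zfpm1, and Zfpm1 and Gata1. They did not overlap between Zfpm2 and Gata4, which differed by 0.59 ± 0.25 (SD, n = 3), nor between Gata6 and Gata2, which differed by 0.24 ± 0.19 (SD, n = 3). Neither gap could pass an exact permutation test over 3 arrays, whose smallest two-sided p is 0.25. Gata4 also lay above Gata5 on every array, by 0.36 ± 0.14 (SD, n = 3). The order is one of differences between tumors, and it says nothing of which gene was the most abundant, since channel intensities were not used here.

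**Figure D2:**
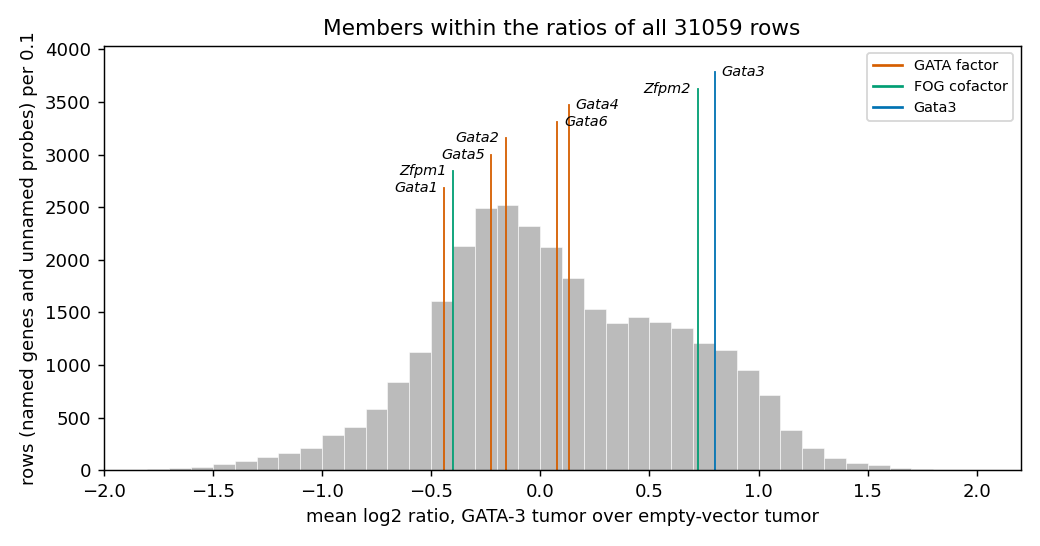
The mean log2 ratio of GATA-3 tumor over empty-vector tumor (horizontal axis) is shown as a histogram of 31059 rows per 0.1, with vertical lines at the means of the 5 GATA factors, the 2 FOG cofactors and Gata3. All 8 lines lie within the bulk of the histogram: the highest, Gata3, was reached by 11.9% of rows, and a mean as low as that of Gata1 by 15.8%.

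How much a single probe carries can be read from genes measured with exactly 2 probes. Over 3599 such genes the means of both probes differed by a median of 0.48 on the log2 scale, with quartiles of 0.21 and 0.90. The probes of 35.3% of these genes differed by more than the whole mean ratio of Zfpm2. Pearson's r between the probes was 0.10, a value across genes that are no independent replicates, and 44.9% of the pairs had opposite signs. The Gata4 probes were closer than most: 21.1% of the pairs differed by less. The ratios of Gata1, Gata2, Gata5, Gata6, Zfpm1, Zfpm2 and also Gata3 each rest on 1 probe. The part of a probe effect in their ratios was not tested.

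The genes for the proteins through which FOG cofactors repress went both ways. Of 14 genes for corepressor partners measured (subunits of NuRD and the CtBP proteins), 5 rose, 6 fell and 3 did not pass. Their median log2 ratio was -0.11, against 0.02 over all rows. The share called was 78.6%, against 55.8% of all rows. Among those that did not pass, Gatad2a and Rbbp7, named after their values were seen, average probes called in both directions. These stood at 0.45 and -0.68 for Gatad2a, and at -0.77, 1.10 and -0.64 for Rbbp7. Chd4, also named afterwards, fell with probes at -0.54, -0.78 and 0.04. Ctbp1, a corepressor that FOG proteins bind directly, rose, with log2 ratios of 0.72, 1.14 and 1.20 on arrays 1, 2 and 3 (mean 1.02 ± 0.26, SD, n = 3; limma, adjusted p = 0.00337). Its paralog Ctbp2, named after its value was seen, fell (-0.52 ± 0.10; limma, adjusted p = 0.00649), with both of its probes negative. Among the histone deacetylases of NuRD, Hdac2 rose (0.80 ± 0.11; limma, adjusted p = 0.00310) and Hdac1, named after its value was seen, fell (-0.74 ± 0.29; limma, adjusted p = 0.00795). Ctbp1, Hdac2 and Hdac1 each rest on 1 probe, and the part of a probe effect in these splits was not tested.

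The genes for NuRD subunits with a GATA-type zinc finger were split in the same manner. Mta2 had log2 ratios of 1.06, 1.08 and 1.06 on arrays 1, 2 and 3, a mean of 1.07 ± 0.01 (SD, n = 3) or 2.09-fold (limma, adjusted p = 0.00307). Mta1 lay at the other end with -1.17, -1.14 and -0.76, a mean of -1.02 ± 0.23 (limma, adjusted p = 0.00312), and Mta3 at -0.63 ± 0.15 (adjusted p = 0.00521). Each of these 3 genes rests on 1 probe, and each kept its call whichever array was left out. Over all 7 measured genes for proteins with a GATA-type finger outside the family, 3 rose (Mta2, Gatad2b and Gatad1). Of the others, 3 fell (Mta1, Mta3 and Trps1) and Gatad2a did not pass. This was 85.7% called, against 55.8% of all rows. Without array 2 or without array 3 the count that rose was 1. Gatad2b (0.38 ± 0.07) and Gatad1, named after its value was seen, rested on probes of opposite sign, at 0.91 and -0.16 for Gatad2b and at -0.34 and 1.01 for Gatad1. The uncalled average of Gatad2a also rested on probes of opposite sign, as given above. Trps1, an atypical GATA protein that acts as a repressor and is known from breast epithelium, also named afterwards, was at -0.53 ± 0.27 with both probes negative (limma, adjusted p = 0.0195; 0.0560 without array 2).

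Genes for partners of GATA1 and GATA2 in blood-cell complexes counted 2 up and 6 down of 13, with a median of -0.28. In this list 61.5% were called, against 55.8% of all rows. Lmo2, the bridging protein of the complex, rose, with log2 ratios of 0.86, 1.51 and 1.23 on arrays 1, 2 and 3 (mean 1.20 ± 0.32, SD, n = 3; limma, adjusted p = 0.00326). Its binding partner Ldb1, the other gene that rose and one named afterwards, stood at 0.39 ± 0.09 (adjusted p = 0.0142; 0.1003 without array 3). The DNA-binding partner Tal1, named after its value was seen, did not pass, at 0.25 ± 0.12 (limma, adjusted p = 0.0642). Tcf3, the E protein that pairs with Tal1, fell (-0.87 ± 0.13; limma, adjusted p = 0.00307), as did Spi1, the myeloid factor PU.1 that opposes GATA1 (-1.58 ± 0.42; adjusted p = 0.00309), and the globin repressor Zbtb7a (-0.71 ± 0.22; adjusted p = 0.00587). The median of the list was 0.01 on array 1 and -0.31 and -0.23 on arrays 2 and 3, and without array 3 the counts were 1 up and 3 down. Cbfa2t3, named after its value was seen, did not pass as the average of 3 probes, at 0.37, -0.78 and 0.68. Tested on their own, the second was called lower and the third higher (limma, adjusted p = 0.00319 and 0.0121).

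Markers of the cell types that make GATA1 and FOG1 were read beside the lower ratios of Gata1 and Zfpm1. Of 9 erythroid genes measured, 6 rose, 0 fell and 3 did not pass, with a median log2 ratio of 0.29 and array medians of 0.33, 0.28 and 0.21. This split depended on the processing: with the values as deposited 3 rose and 2 fell, and with arrays scaled, or with the median over probes, 6 rose and 1 fell. The share of erythroid genes called was 66.7%, against 55.8% of all rows. Epor, named after its value was seen, did not pass as the average of 5 probes (-0.27; limma, adjusted p = 0.0598). Tested on their own, its probes at -0.72, -0.98 and -0.48 were called lower and that at 0.64 higher. The remaining Epor probe, at 0.18, was not called. Alas2, the first enzyme of heme synthesis in red cells, was at 0.58 ± 0.15 (limma, adjusted p = 0.00646), and the mitochondrial iron importer Slc25a37 at 0.53 ± 0.07 (adjusted p = 0.00554; 0.0568 without array 3). Tfrc and Epb42 rose as well, at 0.29 ± 0.07 and 0.65 ± 0.37. The erythroid count that rose was 4, 3 and 1 without arrays 1, 2 and 3, Alas2 being the gene called in each of these. Megakaryocyte genes counted 2 up and 2 down of 6, with the platelet chemokine Pf4 at 1.11 ± 0.30 (limma, adjusted p = 0.00339) and Ppbp at 0.33 ± 0.09 (adjusted p = 0.0240), and the platelet receptor subunits Gp9 at -0.51 ± 0.16 (adjusted p = 0.0101) and Gp1bb at -0.47 ± 0.25 (adjusted p = 0.0227). Of the megakaryocyte genes 66.7% were called, against 55.8% of all rows. The megakaryocyte counts were 1 up and 1 down without array 2, and 1 up (Pf4) and 0 down without array 3.

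Mast cells, which make both GATA1 and GATA2, gave 2 genes up and 0 down of 8, with a median of 0.09. These were the tryptase Tpsb2 (1.05 ± 0.08; limma, adjusted p = 0.00307) and the IgE receptor chain Ms4a2 (1.01 ± 0.31; adjusted p = 0.00405). The chymase gene Cma1 gave -1.55, -0.28 and -0.44 on arrays 1, 2 and 3 and did not pass (limma, mean -0.76, adjusted p = 0.0573), but it did without array 1 (adjusted p = 0.0212) and without array 2 (adjusted p = 0.0336). Mcpt1 was at -0.19 (adjusted p = 0.136; 0.0463 without array 1). The mast cell counts were 3 up and 2 down without array 1, and 2 up and 1 down without array 2 or with the values as deposited. Srgn, named after its value was seen, did not pass as the average of 2 probes that disagreed. Its probes stood at 0.70 and -0.48, and on their own were called higher and lower (limma, adjusted p = 0.00350 and 0.0227). Endothelial genes, read beside Gata2, counted 4 up and 3 down of 11, with a median of 0.03. Among them 63.6% were called, against 55.8% of all rows. Kdr, the main VEGF receptor (1.05 ± 0.40; limma, adjusted p = 0.00573), Tek (0.81 ± 0.04; adjusted p = 0.00307) and Esam (0.46 ± 0.12; adjusted p = 0.0109) rose, and the fenestra protein gene Plvap fell (-0.86 ± 0.07; adjusted p = 0.00307). These endothelial counts were 4 up and 1 down without array 2, and 2 up and 1 down without array 3. The part of these cell types in the ratios of Gata1, Zfpm1 and Gata2 was not tested.

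Genes that work with GATA4, GATA5 and GATA6 or that they are known to switch on were mostly not called in the heart list. Of 20 cardiac partners and targets, 6 rose, 2 fell and 12 did not pass, with a median of 0.02. The share called was 40.0%, against 55.8% of all rows. Among those that did not pass, Mef2c and Tbx20, named after their values were seen, average probes that disagreed. Their probes stood at -0.80, -0.42 and 1.11 (Mef2c) and at 0.01, -0.27 and 0.89 (Tbx20). On its own, the lowest and highest probe of each was called (limma, adjusted p = 0.0106 and 0.0152, and 0.0396 and 0.00320). The cardiac actin gene Actc1 rose (0.89 ± 0.17; limma, adjusted p = 0.00313), with both probes positive, and so did the progenitor factor Isl1 (0.67 ± 0.19; adjusted p = 0.00556). Myh7, the slow myosin heavy chain, fell (-0.63 ± 0.08; limma, adjusted p = 0.00395), with both probes negative, as did Hand1 (-0.59 ± 0.21; adjusted p = 0.00913). The core partners Nkx2-5 (-0.07 ± 0.13) and Tbx5 (-0.13 ± 0.07), named after their values were seen, did not pass (limma, adjusted p = 0.560 and 0.221). The value of Tbx5 averages 3 probes that disagreed, at -0.65, 0.07 and 0.19. Tested on its own, the first was called lower (limma, adjusted p = 0.00475) and the others were not called. Without array 3 the cardiac counts were 2 up and 1 down, and without array 1, or with the values as deposited, they were 6 up and 4 down.

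In the endoderm list 5 of 12 genes rose and 2 fell, with a median of 0.23. This was 58.3% called, against 55.8% of all rows. Dab2, an adaptor that GATA6 switches on in extraembryonic endoderm, had log2 ratios of 1.65, 1.51 and 1.30 on arrays 1, 2 and 3 (mean 1.49 ± 0.18, SD, n = 3; 2.80-fold; limma, adjusted p = 0.00307). Sox17, an endoderm and endothelial factor (0.71 ± 0.09; adjusted p = 0.00332), and alpha-fetoprotein, Afp (1.28 ± 0.43; adjusted p = 0.00413), also rose. The apolipoprotein gene Apoa1 fell (-0.63 ± 0.13; limma, adjusted p = 0.00471). Each of these 4 rests on 1 probe. Without array 2, and likewise without array 3, the endoderm counts were 3 up and 1 down. In the gonadal list 4 of 8 rose and 3 fell, with a median of 0.27. There 87.5% were called, against 55.8% of all rows. The steroidogenic regulator Nr5a1 (-1.15 ± 0.18; limma, adjusted p = 0.00307), the inhibin alpha gene Inha (-0.78 ± 0.08; adjusted p = 0.00307) and Fgf9 (-0.95 ± 0.35; adjusted p = 0.00563) fell, and Wt1 rose (0.76 ± 0.32; adjusted p = 0.00903). Without array 2, and likewise without array 3, Wt1 was the 1 gonadal gene that rose.

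Luminal markers of the tumor epithelium, in which GATA-3 was forced, counted 2 up and 5 down of 10, with a median of -0.42. Among these markers 70.0% were called, against 55.8% of all rows. Krt18 and Krt19 fell (-1.24 ± 0.20 and -1.23 ± 0.37; limma, adjusted p = 0.00307 and 0.00355), as did the tight junction gene Cldn4 (-0.71 ± 0.16; adjusted p = 0.00426), while Cdh1, E-cadherin, rose (0.80 ± 0.05; adjusted p = 0.00307). The luminal counts were 1 up and 5 down without array 2, and likewise without array 3, Cdh1 being the gene that rose. Elf5, named after its value was seen, did not pass as the average of 2 probes that disagreed. They stood at 0.59 and -0.42, and on their own were called higher and lower (limma, adjusted p = 0.0105 and 0.0285). Ratios do not tell how strongly any marker was present in either tumor, so the labelled tissue could not be checked from levels. Over all 11 lists, 61.6% of the 112 measured genes were called (39 up and 30 down), against 55.8% of all rows.

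**Figure D3:**
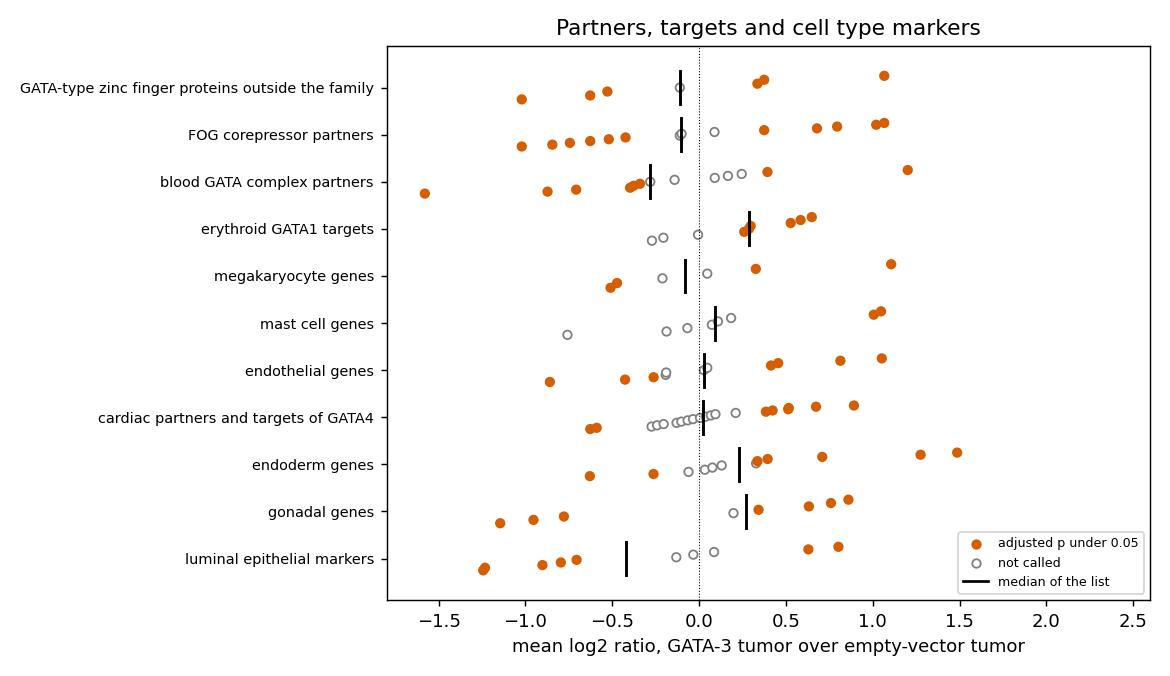
Each point is the mean log2 ratio of GATA-3 tumor over empty-vector tumor (horizontal axis) of 1 gene, in 11 lists of partners, targets and cell type markers (rows); filled points have a limma adjusted p under 0.05 and the black bar is the median of the list. List medians run from -0.42 (luminal markers) to 0.29 (erythroid genes).

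The genes whose 3 array values were nearest to a called member were found by Euclidean distance over the log2 ratios of 3 arrays, among 15049 other named genes. Nearest to Gata1 were Dennd1c (distance 0.022) and Tecta (0.025), nearest to Zfpm1 were Rhobtb2 (0.031) and Dcaf13 (0.033), and nearest to Zfpm2 were Opa3 (0.037) and Prkra (0.038). Such patterns were common on these arrays: 757 genes lay within a distance of 0.2 of Gata1, 624 of Zfpm1 and 183 of Zfpm2.

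**Figure D4:**
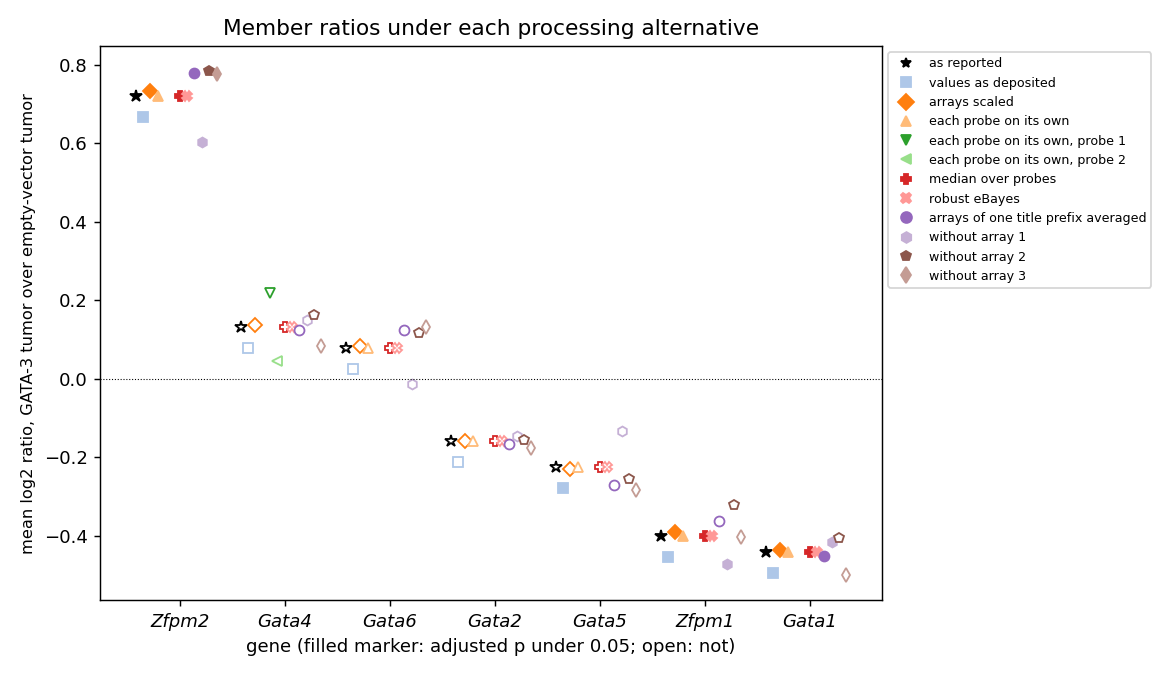
The mean log2 ratio of GATA-3 tumor over empty-vector tumor (vertical axis) of each of the 7 genes is plotted as reported and under each processing alternative; filled markers have a limma adjusted p under 0.05 and open ones do not. Zfpm2 stays filled throughout, between 0.60 and 0.78, while Gata1 and Zfpm1 have open markers in 2 and 3 of 9 alternatives.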

How the data were processed

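RNA of GATA-3 and empty-vector tumors was compared on 3 two-channel arrays. The authors deposited log ratios, 1 for each probe on each array, which were read as log2. The sources used here do not state the scanner, background correction, normalization, log base or ratio direction. Deposited array medians of -0.02, -0.07 and -0.07 were close to 0. Channel intensities were not used, so probe brightness is unknown, and the number of arrays limits the precision.

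Arrays were numbered in accession order, as names only. The platform annotation gave 1 symbol for 22973 of 38976 rows, more than 1 for 0 and no symbol for 16003. Each array was centred on its median, rows with a missing value were dropped (1), and probes of 1 symbol were averaged, leaving 31059 rows. Limma 3.58.1 (R 4.3.3) tested each row's mean against 0 (intercept only, eBayes, Benjamini-Hochberg over all rows, threshold 0.05). The fit was tested on simulated data.

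The members and the 11 lists (134 genes, 112 measured) were chosen with earlier results of these data known. Named were all members, Gata3, up to 4 genes per list of smallest p, and the 2 nearest genes of each called member; others are said to be named afterwards. Alternatives covered centring, scaling, probe summary, robust eBayes, averaging arrays 2 and 3, and each array left out.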

Additional observations from a re-analysis of the deposited data

How the results depend on the processing

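Zfpm2 kept its sign and call in 9 of 9 alternatives (limma, adjusted p from 0.00324 to 0.0340), and Gata2 and Gata4 stayed uncalled throughout. Robust eBayes cannot change a mean. Each probe on its own and the median over probes cannot change that of a gene with 1 probe. With the values as deposited, Gata5 became called (limma, -0.28, adjusted p = 0.0488). With arrays 2 and 3 averaged, Zfpm1 lost its call (limma, -0.36, adjusted p = 0.0897), the rows called over the whole array came to 11041 in place of 17340, and the list genes called higher to 21 in place of 39. That setting and those that leave out an array use fewer values per row by construction. With each probe on its own, 49 probes of list genes were called lower, in place of 30 genes. With 1 array left out, rows called ran from 8500 (without array 3) to 19744 (without array 1). Members called ran from 1 (without array 2 or array 3, Zfpm2 each time) to 3 (without array 1). List genes called higher ran from 18 to 39 and lower from 20 to 35. Over the same fits the mean log2 ratio of Gata1 ran from -0.50 to -0.41, of Zfpm1 from -0.47 to -0.32 and of Zfpm2 from 0.60 to 0.78. The mean of Gata6 ran from -0.01375 (without array 1, the sign turned) to 0.13, and the cause was not tested. Of the 22 counts per list and direction, 14 moved by over 1.5 times without array 3, 12 with arrays 2 and 3 averaged, 10 without array 2, 4 with the values as deposited, 2 without array 1, 1 with arrays scaled, 1 with the median over probes and 0 with robust eBayes. No paired analysis was possible because the arrays form 1 group whose values already are ratios of 2 tumors.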
